A study of Mus musculus with 7 samples.

Results

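Golgi glycosyltransferases build and cap the sugar chains of glycoproteins and glycolipids, and 76 of the 23930 genes in the deposited table belonged to this group by name. Every gene whose symbol begins with B3galt, B4galt, B3gnt, Galnt, St3gal, St6gal (which takes in St6galnac), St8sia, Fut, Mgat or C1galt was included, and the rule reads no measured value, although it was set with earlier results of these data known. The prefixes also take in some genes that are not enzymes, among them the chaperone C1galt1c1, the pseudogene Fut4-ps1 and the opposite-strand transcript St8sia3os. Bulk RNA was measured in 7 libraries of sorted Pax7-GFP cells, 3 from mice held in normocapnia (NC1 to NC3) and 4 from mice held in hypercapnia, that is, raised CO2 (HC1 to HC4). All mice were inducible Pax7-GFP reporters, with a strain that the labels number from C57BL/6 to C57BL/12 over the libraries, while their growth protocol gives C57/B6. They received tamoxifen at 12 weeks of age, spent 4 weeks in their condition and were collected at 16 weeks. In this reporter, a tamoxifen-dependent Cre recombinase expressed from Pax7, the transcription factor of satellite cells, turns on GFP, and the progeny of a labeled cell stay green. According to the study's methods, hind leg muscles had been injured with cardiotoxin in both groups before the sort, whereas the labels name no injury and the title of the deposited table carries a time that the labels do not explain. The labels give neither the sex of the mice nor which mice a library came from, so p-values measure the spread between these libraries, part of which may be technical.

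Library totals ran from 14527445 to 23388710 reads. The sort is labeled as Pax7+ stem cells, and markers of macrophages were abundant in every library beside those of satellite cells. Pax7 was at 268 RPM (reads of a gene, scaled by the authors so that all libraries have the same total) in NC1, at 8.25 in NC2 and at 4.34 in NC3, and between 20.1 and 79.5 RPM in hypercapnia. The 10 satellite cell markers summed to 165 to 2915 RPM in normocapnia and to 363 to 1145 RPM in hypercapnia, with none at 0 in any library and 0 of 10 called. The 10 macrophage markers in the table summed to 12033 to 34607 RPM in normocapnia and to 19665 to 24518 RPM in hypercapnia, and 1 of them, Adgre1, was called higher in hypercapnia, while C1qa was at 0 in NC3 and HC3. Lyz2, the lysozyme of macrophages, made up most of this sum with 8354 to 29108 RPM over the 7 libraries. Markers of other cells were present as well. The 6 fibro-adipogenic markers summed to 1034 to 1767 RPM in normocapnia and to 935 to 2230 RPM in hypercapnia. For the 6 myofiber markers the sums were 239 to 4411 RPM and 345 to 2094 RPM. Xist, the RNA of the inactive X chromosome, lay between 445 and 701 RPM in NC1, NC2, HC1 and HC2 and at most at 0.125 RPM in NC3, HC3 and HC4, so each group held libraries of both kinds. In bulk RNA, fewer cells of a type and less RNA per cell cannot be told apart. The part of these differences between libraries in the results that follow was not tested beyond the values given beside them.

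Glycosyltransferases of the Golgi each add one kind of sugar, such as galactose, N-acetylglucosamine, N-acetylgalactosamine, fucose or sialic acid, to a defined acceptor. On N-glycans they convert a trimmed core into branched antennae that are extended with galactose and capped with sialic acid. On O-glycans they start from a single sugar on serine or threonine, and on lipids they elongate ceramide into gangliosides and other glycosphingolipids. In muscle, sugar chains of this kind sit on dystroglycan, integrins, growth factor receptors and the neural cell adhesion molecule of regenerating fibers, and sialylated chains on leukocytes are read by lectins. Because each gene was read through 1 amplicon, values compare a gene between libraries and not genes with each other. Where the values of a whole group are listed, they follow the order NC1, NC2, NC3 or HC1, HC2, HC3, HC4.

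Of the 76 members, 3 passed an unadjusted p of 0.05 and a fold change of 1.5 in limma on log2(RPM + 1), which is 3.95% of members beside 2.57% of all genes. At a mean of at least 1 RPM, 6% of members were called, beside 4.75% of genes. B4galt5 and Mgat5 rose in hypercapnia, and St3gal5 fell. Higher calls made up 2.63% of members and 1.43% of all genes, and lower calls 1.32% and 1.14%. After Benjamini-Hochberg adjustment over all genes, 0 members and 0 of all genes passed in limma. The lowest adjusted p of a member in limma, 0.351, was also the lowest of all genes. An unadjusted p under 0.05 in limma was found for 6 of 76 members, beside 1114 of 23930 genes. Among the 54 members that entered edgeR, 0 passed after adjustment, beside 0 of all 13293 genes tested there, and 6 had an unadjusted p under 0.05. DESeq2 passed 1 member, B4galt5, at an adjusted p of 0.0258, beside 29 of 20858 genes.

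The 3 called genes are shown here by the stretch from 250 bases before to 50 bases after their start (RefSeq, GRCm38.p6), because they carry the calls of the whole group and 2 of them act on successive steps of 1 pathway. Capitals mark every GC box, that is, GGGCGG on either strand, with overlapping matches joined, and each sequence runs 5′ to 3′ on the strand given for its gene. For B4galt5 and St3gal5, the bases just after the start were found in a transcript of the gene in this orientation. No such match was found for Mgat5 in either orientation.
B4galt5, chr2:167349129-167349428, minus strand: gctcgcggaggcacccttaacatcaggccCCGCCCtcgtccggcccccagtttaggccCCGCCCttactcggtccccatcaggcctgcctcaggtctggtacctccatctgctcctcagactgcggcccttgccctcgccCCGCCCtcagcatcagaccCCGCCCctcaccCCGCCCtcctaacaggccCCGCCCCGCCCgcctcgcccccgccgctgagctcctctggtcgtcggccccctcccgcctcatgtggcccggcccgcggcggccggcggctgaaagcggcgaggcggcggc
Mgat5, chr1:127204736-127205035, plus strand: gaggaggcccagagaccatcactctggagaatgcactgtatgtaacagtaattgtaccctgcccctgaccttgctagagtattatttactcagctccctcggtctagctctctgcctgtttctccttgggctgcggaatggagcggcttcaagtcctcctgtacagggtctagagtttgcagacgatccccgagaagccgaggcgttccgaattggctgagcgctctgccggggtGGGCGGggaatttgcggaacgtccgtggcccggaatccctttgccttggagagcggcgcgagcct
St3gal5, chr6:72097358-72097657, plus strand: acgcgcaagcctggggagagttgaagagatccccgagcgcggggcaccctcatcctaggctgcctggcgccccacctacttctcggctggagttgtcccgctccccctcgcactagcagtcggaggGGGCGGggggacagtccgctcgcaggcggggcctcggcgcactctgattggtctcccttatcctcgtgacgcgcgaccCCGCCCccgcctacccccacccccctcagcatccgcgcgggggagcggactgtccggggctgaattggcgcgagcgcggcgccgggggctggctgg
The B4galt5 window held 7 GC boxes and 31 CpG dinucleotides at 75% GC. The St3gal5 window held 2 GC boxes and 33 CpG dinucleotides at 72.7% GC. The Mgat5 window was the least rich of the 3, with 1 GC box, 18 CpG dinucleotides and 58% GC. Over 32851 mouse promoters of the same length, 35.7% held a GC box, the median GC content was 52.7% and the median CpG count was 7. The CCAAT box (CCAAT on either strand) occurred 2 times in the St3gal5 window, 1 time in that of Mgat5 and not in that of B4galt5, and 37.4% of all promoters held it. Neither the E-box CACGTG (7.15% of all promoters) nor TATAAA (13.6%), both searched on either strand, was found in the 3 windows. A match of letters does not show a site in use. Of the 76 members, 55 had a promoter sequence in the table.

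B4galt5 encodes the main lactosylceramide synthase, which adds galactose to glucosylceramide. It was read at 47.1 RPM in NC1, 51.2 in NC2 and 36.6 in NC3, and at 95.9 RPM in HC1, 92.8 in HC2, 103 in HC3 and 107 in HC4. Every hypercapnia library lay above every normocapnia library, and the 4 hypercapnia values stood close to each other. The mean was 45.0 ± 7.53 RPM (SD, n = 3) in normocapnia and 99.6 ± 6.36 RPM (SD, n = 4) in hypercapnia. This is a log2 fold change of 1.14 (SE 0.12) or 2.20-fold on the log2(RPM + 1) scale, with an adjusted p of 0.351 in limma over all genes. It was called in all 21 alternatives, with log2 fold changes from 0.93 to 1.24. It was also higher in the libraries with Xist (0.93, 2 against 2) and in those without it (1.49, 1 against 2).

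St3gal5, the GM3 synthase, takes the product of B4galt5 and adds the first sialic acid of the gangliosides. It was read at 127 RPM in NC1, 114 in NC2 and 56.2 in NC3, and at 25.8 RPM in HC1, 23.2 in HC2, 57.2 in HC3 and 53.2 in HC4. The groups overlapped, since NC3 fell between HC3 and HC4. The mean was 99.1 ± 37.6 RPM (SD, n = 3) in normocapnia and 39.8 ± 17.9 RPM (SD, n = 4) in hypercapnia. The log2 fold change was -1.32 (SE 0.47) with an adjusted p of 0.915 in limma. The difference lay in the libraries with Xist, where the mean went from 120 to 24.5 RPM (log2 difference -2.25, 2 against 2). In those without Xist, NC3 held 56.2 RPM and HC3 and HC4 averaged 55.2 RPM (log2 difference -0.03, 1 against 2). Whether the difference between these 2 sets of libraries is larger than chance was not tested. The call was lost without NC1 (-1.10), without NC2 (-1.18), without HC1 (-1.15) and without HC2 (-1.11). It was also lost with the macrophage score (-1.16, unadjusted p = 0.0862 in limma) or with Xist (-1.37, unadjusted p = 0.0525 in limma) as a covariate. In all of these the log2 fold change differed from the reported one by less than its SE.

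The other enzymes of the same lipid pathway that are described here showed no common direction. Ugcg, the glucosylceramide synthase at the head of the pathway, ran from 27.6 to 95.3 RPM in normocapnia and from 30.05 to 53.7 RPM in hypercapnia, with a log2 fold change of -0.10 (SE 0.50). B4galt6, which like B4galt5 can make lactosylceramide, was read at 52.5, 105 and 69.6 RPM under normocapnia and at 103, 115, 76.7 and 63.7 RPM under hypercapnia. Its groups overlapped, and the log2 fold change was 0.26 (SE 0.32). A4galt, which turns lactosylceramide into the globoside Gb3, ran from 4.06 to 17.9 RPM in normocapnia and from 10.5 to 23.2 RPM in hypercapnia, with no call. St8sia1, the GD3 synthase that acts on the product of St3gal5, was at 1.94 RPM or less in all 7 libraries. B4galnt1, which makes GM2 and GD2, was read at 79.2, 207 and 108 RPM under normocapnia and at 74.9, 74.1, 71.3 and 79.0 RPM under hypercapnia. All its hypercapnia values were below the normocapnia values, though HC4 and NC1 lay side by side, and it was not called (log2 fold change -0.69, SE 0.32). B3galt4, the GM1 synthase, was read at 7.85, 16.2 and 8.19 RPM under normocapnia and at 12.0 to 17.9 RPM in hypercapnia, again with overlap (0.46, SE 0.28). Ugcg, A4galt and St8sia1 lie outside the rule for named genes and were added after their values were seen, to show more steps of the pathway. The pathway is not covered in full.

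**Figure D1:**
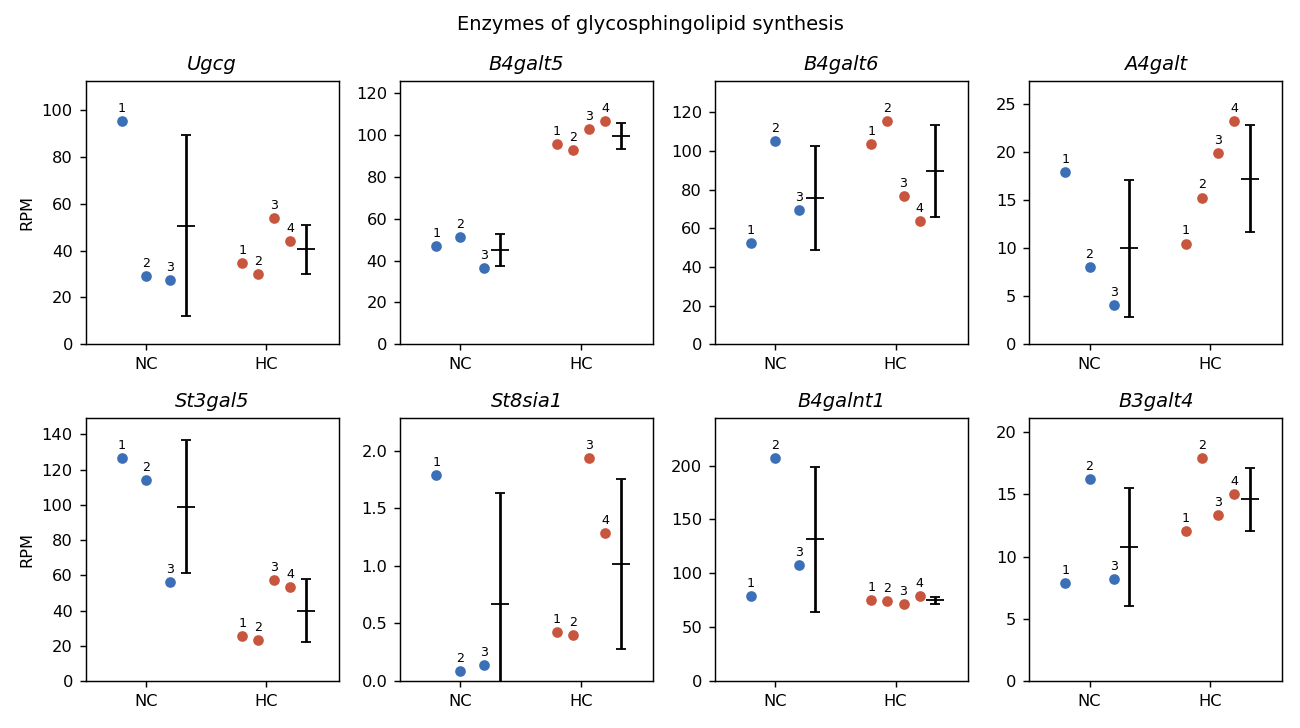
RPM (linear axes from 0) of 8 enzymes of glycosphingolipid synthesis in the normocapnia (NC, blue, n = 3) and hypercapnia (HC, red, n = 4) libraries. Each numbered point is 1 library, and the black bar gives mean ± SD, cut off at 0. B4galt5 is the gene whose groups stand wide apart upward (36.6 to 51.2 against 92.8 to 107 RPM), while for St3gal5 HC1 and HC2 lie lowest and NC3 sits among HC3 and HC4.

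Mgat5 was the other member that rose. It encodes the N-acetylglucosaminyltransferase that opens the last branch of complex N-glycans, the branch that is readily extended into the chains bound by galectins. It was read at 58.7 RPM in NC1, 81.6 in NC2 and 47.8 in NC3, and at 109 RPM in HC1, 124 in HC2, 107 in HC3 and 93.4 in HC4. The lowest hypercapnia library lay above the highest normocapnia library. The mean was 62.7 ± 17.3 RPM (SD, n = 3) against 108 ± 12.7 RPM (SD, n = 4), a log2 fold change of 0.81 (SE 0.20) or 1.75-fold, with an adjusted p of 0.826 in limma. It was higher in the libraries with Xist (0.74) and without it (1.05). The call was lost in edgeR without a filter (0.70) and in the libraries with Xist alone.

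The other branching enzymes did not move as 1 group. Mgat1, which adds the first antennal sugar and on which all later branches depend, ran from 0.138 RPM in NC3 to 32.4 RPM in NC2 in normocapnia. In hypercapnia it was at 24.1 RPM in HC1 and 23.4 in HC2 but at 2.37 in HC3 and 3.93 in HC4, so that libraries with Xist were the higher ones in both groups. The 0.138 RPM of NC3 rests on 2 reads, and the log2 fold change of 0.73 (SE 1.41) had an error larger than itself and was -0.48 without NC3. Mgat2, which opens the second branch, was read at 155, 144 and 44.8 RPM under normocapnia and at 212, 159, 167 and 238 RPM under hypercapnia. Its groups did not overlap, but HC2 exceeded NC1 by a few RPM, and the log2 fold change of 0.93 (SE 0.48) was not called. In the libraries with Xist alone, which leave out NC3, the difference was 0.30.

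Mgat4a and Mgat4b, which open a further branch on the other arm of the core, both had negative log2 fold changes. Mgat4a was read at 27.4, 35.6 and 69.2 RPM under normocapnia and at 22.8, 19.7, 26.3 and 24.2 RPM under hypercapnia. All 4 hypercapnia values lay below normocapnia, NC1 being close to HC3, and its log2 fold change of -0.79 (SE 0.32, adjusted p = 0.915 in limma) missed the call at an unadjusted p of 0.0536 in limma. Mgat4a was called lower in 6 of 21 alternatives, among them edgeR (-1.195), edgeR without a filter (-1.15) and DESeq2 (-1.25). Without NC3 its log2 fold change was -0.42. Mgat4b had its normocapnia values at 72.0, 91.6 and 88.3 RPM and its hypercapnia values between 59.5 and 78.6 RPM (-0.27, SE 0.13). Mgat3, the bisecting enzyme, and Mgat5b, a brain relative of Mgat5, were at 1.115 RPM or less in every library, and both were named after their values were seen.

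B4galt1, the chief galactosyltransferase of glycoproteins, was read at 348, 467 and 819 RPM under normocapnia. Its hypercapnia libraries held 393, 376, 356 and 501 RPM, and the groups overlapped (log2 fold change -0.34, SE 0.31). NC3 alone stood apart, and without it the log2 fold change was -0.0011. In the B4galt family as a whole, 6 of 7 members had a positive log2 fold change, under RPM, under median-of-ratios scaling and under quantile normalization. In RPM, 62.1% of genes at 1 RPM or more were higher. Of the 7, 1 was called (14.3%, beside 2.57% of all genes and 4.75% of genes at 1 RPM or more). B4galt4 was read at 18.6, 5.86 and 6.13 RPM under normocapnia and at 15.5, 17.5, 21.5 and 20.1 RPM under hypercapnia (0.99, SE 0.41). It was named after its values were seen, since it was called under median-of-ratios scaling, quantile normalization, edgeR with a filter and DESeq2 among others, but not in the reported fit.

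**Figure D2:**
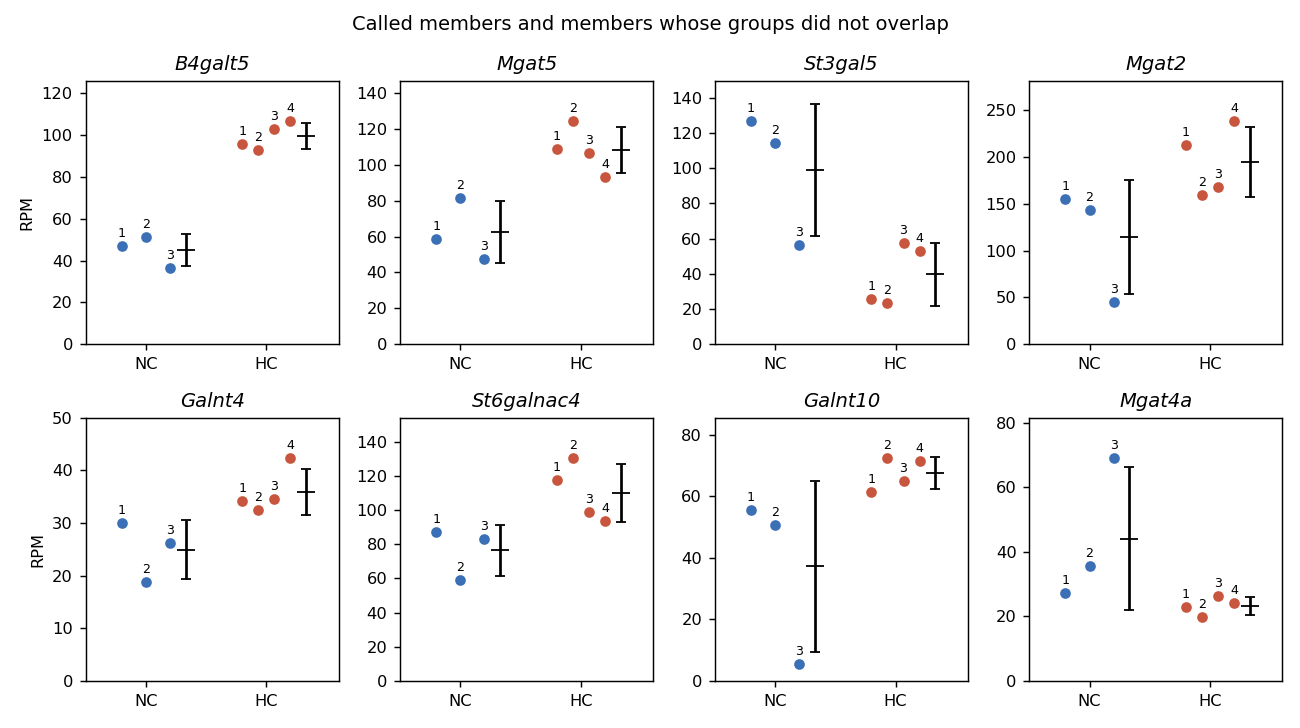
RPM (linear axes from 0) of the 3 called members and of 5 more whose groups did not overlap, in normocapnia (NC, blue, n = 3) and hypercapnia (HC, red, n = 4). Each numbered point is 1 library, and the black bar gives mean ± SD. For B4galt5 and Mgat5 the gap between groups is clear, whereas for Galnt10 and Mgat2 the SD in normocapnia comes from NC3 (5.37 and 44.8 RPM).

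O-glycans of the mucin type are begun by the Galnt enzymes, which attach N-acetylgalactosamine to serine or threonine. None of the 17 Galnt members was called, and 9 were higher and 7 lower in hypercapnia, a split that became 8 and 8 under median-of-ratios scaling and 7 and 9 under quantile normalization. Galnt4 was read at 29.9, 18.8 and 26.2 RPM under normocapnia and at 34.2, 32.5, 34.5 and 42.4 RPM under hypercapnia. Its groups did not overlap, and its log2 fold change of 0.52 (SE 0.18) stayed under the fold threshold. Galnt10 was read at 55.7, 50.8 and 5.37 RPM under normocapnia and at 61.4 to 72.5 RPM in hypercapnia. Although its groups did not overlap either, the log2 fold change of 1.37 (SE 0.82) came down to 0.32 in the libraries with Xist, which leave out NC3. Galnt1, a broadly used starter of O-glycans, held 167, 142 and 120 RPM under normocapnia and 112 to 132 RPM in hypercapnia (-0.19, SE 0.13). Galnt6 ranged from 56.6 to 162 RPM in normocapnia and from 103 to 151 RPM in hypercapnia (0.45, SE 0.38). Galnt15 was read at 5.35, 11.7 and 3.17 RPM under normocapnia and at 0.514, 0.955, 4.62 and 3.45 RPM under hypercapnia. Its log2 fold change was -1.24 (SE 0.63) over all libraries, -2.38 in those with Xist and 0.26 in those without. Galnt15 was called lower under quantile normalization, in edgeR without a filter, in DESeq2 and in the libraries with Xist, but not in the reported fit.

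The next step, the addition of galactose that makes the core 1 structure, needs C1galt1 and its dedicated chaperone C1galt1c1, also called Cosmc. C1galt1 was read at 33.5, 38.1 and 107 RPM under normocapnia and at 25.7 to 39.5 RPM in hypercapnia, so that NC3 alone lay apart (-0.62, SE 0.44). Without NC3 its log2 fold change was -0.10. It was called lower in edgeR without a filter (-1.09), in DESeq2 (-1.20) and with Xist as a covariate (-0.79), but not in the reported fit. C1galt1c1 was read at 51.5, 71.1 and 60.9 RPM under normocapnia and at 87.9, 78.7, 69.5 and 99.0 RPM under hypercapnia. HC3 lay just under NC2, and the log2 fold change of 0.45 (SE 0.16) had an unadjusted p of 0.0348 in limma but was below the fold threshold. St6galnac4, which adds sialic acid to the inner sugar of the sialylated core 1 chain, was read at 87.1, 59.3 and 82.8 RPM under normocapnia and at 118, 131, 99.1 and 93.8 RPM under hypercapnia. Its groups did not overlap, and the log2 fold change of 0.53 (SE 0.18) was also under the threshold. St3gal1, which caps the galactose of core 1 and so ends the chain, held 162, 153 and 131 RPM under normocapnia and 104, 127, 141 and 135 RPM under hypercapnia (-0.23, SE 0.13). All 6 St6galnac genes had a positive log2 fold change in RPM, with 0 called, but St6galnac3 turned negative under median-of-ratios scaling and quantile normalization.

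Sialic acid on the ends of N-glycans and lactosamine chains is added by St6gal1 and by several St3gal enzymes. St6gal1, the main source of the sialic acid that the lectin Cd22 reads, was at 28.0, 41.4 and 81.4 RPM under normocapnia and at 38.4, 39.4, 29.1 and 32.3 RPM under hypercapnia. Without NC3 its log2 fold change went from -0.39 to 0.02. St3gal4 was read at 140, 85.0 and 66.8 RPM under normocapnia and at 75.7, 65.7, 140 and 116 RPM under hypercapnia (0.03, SE 0.38). St3gal3 was at 44.9, 18.2 and 4.06 RPM under normocapnia and at 22.6, 18.6, 37.2 and 32.0 RPM under hypercapnia (0.75, SE 0.78). Its log2 fold change was 1.49 without NC1, -0.10 without NC3 and -0.46 in the libraries with Xist. For St3gal3 and St3gal4, the libraries without Xist were the higher ones within hypercapnia. Of the 6 St3gal genes, St3gal5 alone was called (16.7%, beside 2.57% of all genes and 4.75% of genes at 1 RPM or more). In RPM, 4 of the 6 were higher (66.7%, beside 62.1% of genes at 1 RPM or more), but 3 of 6 under the other scalings.

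Polysialic acid, a long chain carried by the neural cell adhesion molecule of regenerating muscle and of some leukocytes, is made by St8sia2 and St8sia4. St8sia2 was read at 53.1 RPM in NC1, 1.28 in NC2 and 3.23 in NC3, and at 18.2, 14.4, 38.2 and 34.4 RPM under hypercapnia. This order, with NC1 on top, HC3 and HC4 above HC1 and HC2, and NC2 and NC3 at the bottom, was that of Pax7, and the log2 fold change of 1.65 (SE 1.17) was not called. It was 3.03 and called without NC1, 0.74 without NC2 and 1.31 and called with the satellite score as a covariate. St8sia4 was at 63.5, 181 and 107 RPM under normocapnia and at 62.4, 63.4, 72.2 and 68.0 RPM under hypercapnia. Its hypercapnia libraries all stood near the level of NC1 (-0.68, SE 0.35). The pair thus had opposite signs, and neither passed the test in the reported fit, while both were called without NC1. St8sia4 was also called lower in edgeR, in edgeR without a filter and in DESeq2.

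Of the remaining families, 0 members were called. Among the 9 Fut genes, 3 were higher, 4 were lower and Fut1 and Fut9 were at 0 in all libraries. Fut10 held 29.7, 5.601 and 1.31 RPM under normocapnia and 11.5 to 16.9 RPM in hypercapnia (0.95, SE 0.88). Its log2 fold change was 1.94 and called without NC1, 0.07 without NC3 and -0.17 in the libraries with Xist. Fut11 held 28.8 to 51.0 RPM in normocapnia and 29.4 to 33.6 RPM in hypercapnia (-0.20, SE 0.20). Fut8, the core fucosyltransferase, was at 4.54 to 15.7 RPM in normocapnia and 6.68 to 10.5 RPM in hypercapnia (-0.06, SE 0.39), and Fut7, which completes the selectin ligand sialyl Lewis x, was at 1.71 RPM or less. Fut8 and Fut7 were named after their values were seen. B3gnt8 and B3gnt9 had means of 11.2 and 11.5 RPM and overlapping groups. B3gnt4 was at 0.385 RPM or less, which is at most 9 reads, and its log2 fold change of -0.21 (SE 0.09) rests on these. B3galt6, which adds the last galactose of the linker between proteoglycan cores and their glycosaminoglycan chains, held 1.16 to 6.36 RPM over the 7 libraries (0.03, SE 0.45). St6galnac3 held 1.84 to 11.9 RPM (0.02, SE 0.58), with HC3 and HC4 on top.

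Over all members, 43 had a positive and 26 a negative log2 fold change, and 7 were at 0 in every library (B3galt1, Galntl6, Fut1, Fut9, St6gal2, St8sia3 and St8sia3os). Another 19 had a mean under 1 RPM, none of them called and all at 2.36 RPM or less in any library. The 50 members with a mean of at least 1 RPM had a median log2 fold change of 0.28 beside 0.16 for the 12504 genes at that level. For the 34 members at 10 RPM or more the median was 0.45, beside 0.13 for 8229 genes, and it was 0.31 beside -0.0057 when scaled by median of ratios, 0.26 beside 0.02 when quantile normalized and 0.11 beside -0.07 without NC3. The medians also rest on single libraries. Without NC1, that of the 50 members was 0.36 and that of the 12504 genes 0.36, without NC3 they were 0.03 and -0.07, and in the libraries with Xist -0.13 and -0.17. They further depend on the scaling: the median of all genes at 1 RPM or more was 0.04 when scaled by median of ratios and -0.01 when quantile normalized, and that of the 50 members was then 0.15 and 0.10. Relative to all genes at 1 RPM or more, B4galt5 and Mgat5 stood higher by most of their change under each scaling, with log2 fold changes of 0.999 and 0.67 under median-of-ratios scaling.

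**Figure D3:**
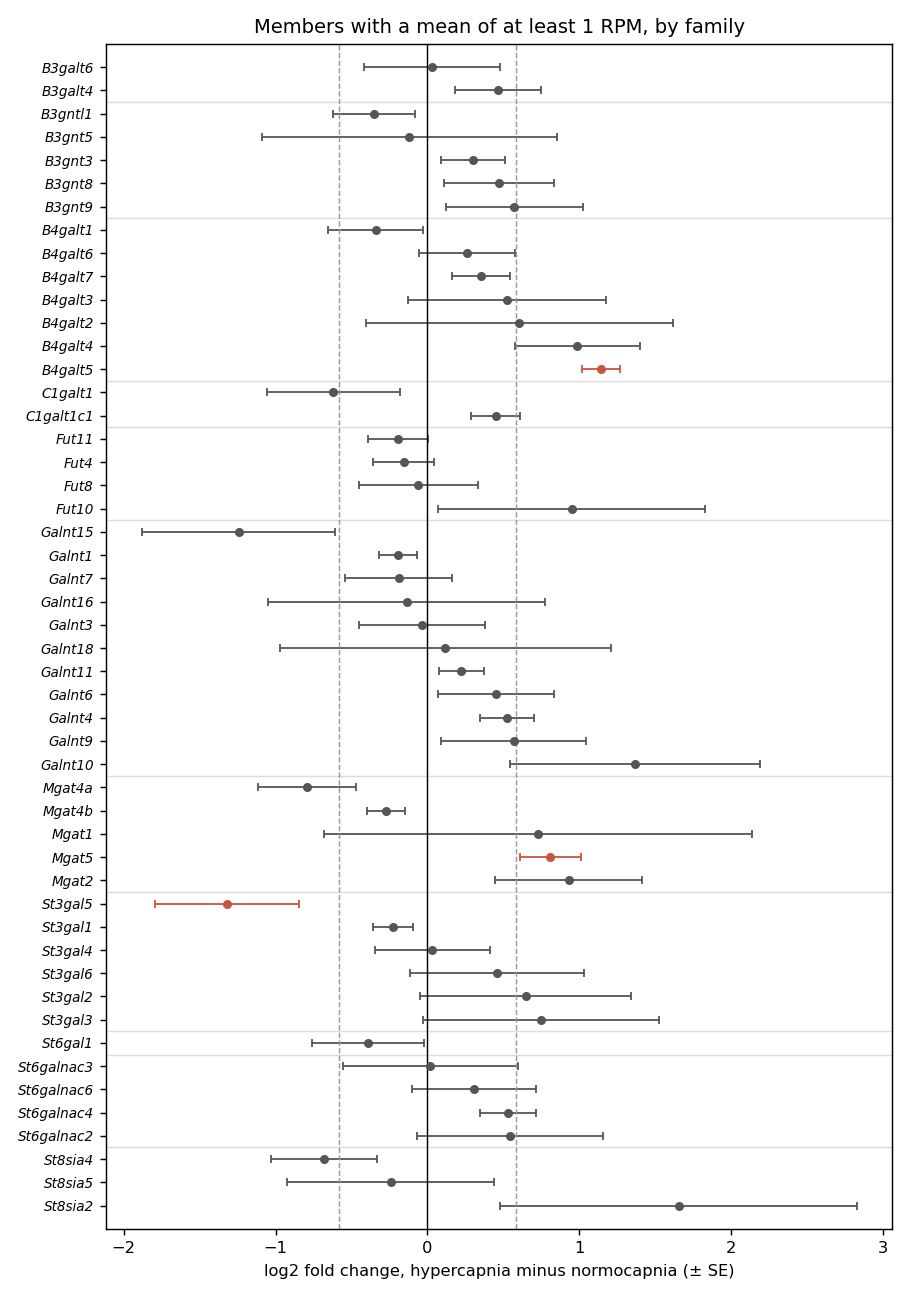
Log2 fold change on the log2(RPM + 1) scale (hypercapnia minus normocapnia, n = 4 and 3) with its SE for the 50 members with a mean of at least 1 RPM, grouped by family. Red points are the 3 called members, and dashed lines mark a fold change of 1.5. B4galt5 has the shortest error bar at 1.14 ± 0.12, and Mgat1, St8sia2 and Galnt18 have the widest.

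Of the 34 members with a mean of at least 10 RPM, 7 (20.6%) had groups that did not overlap, beside 9.62% of the 8229 genes at that level. B4galt5, Mgat5, Galnt4, St6galnac4, Galnt10 and Mgat2 were higher in hypercapnia, and Mgat4a was lower. With NC1 left out the count was 17 of 34 (31.5% of genes), with NC2 10 (25.9%), with NC3 10 (19.4%) and with HC3 11 (14.8%), and it stayed at 7 with HC1, HC2 or HC4 left out. By role, the 7 were 1 lipid enzyme, 3 branching enzymes of N-glycans and 3 enzymes of O-glycans. The normocapnia libraries differed more among themselves than the hypercapnia libraries in 42 of the 50 members (84%), as in 81.1% of all genes at 1 RPM or more. The median SD of log2(RPM + 1) was 0.72 in normocapnia and 0.26 in hypercapnia. In 20 of 50 members (40%) all hypercapnia values fell inside the normocapnia range, and 41.7% of all genes did so. NC3 was the lowest library in 22 members (44%, beside 49.0% of genes), and NC1 the highest in 15 (30%, beside 31.4%).

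Within hypercapnia, HC3 and HC4 were both above HC1 and HC2 in 30 of 50 members (60%), beside 44.5% of genes, and both below in 10 (20%), beside 23.6%. HC3 and HC4 also had more Pax7 and lacked Xist, and their 6 endothelial markers summed to 487 and 380 RPM, beside 58.5 and 45.5 RPM in HC1 and HC2. In the same order, the 6 fibro-adipogenic markers summed to 1825 and 2230 RPM, beside 1035 and 935 RPM. The 7 neutrophil markers summed to 323 and 227 RPM, beside 147 and 105 RPM, and the 6 myofiber markers to 1161 and 2094 RPM, beside 638 and 345 RPM. Macrophage markers went the other way, with 19665 and 20095 RPM beside 24518 and 21072 RPM. The order of Pax7 (NC1 highest, HC3 and HC4 above HC1 and HC2, NC2 and NC3 below all hypercapnia libraries) was shared by 6 members (12%), beside 7.30% of genes, in a count chosen after values were seen. These were B4galt2, Fut10, Galnt18, St3gal2, St3gal3 and St8sia2. None of the 6 was called in the reported fit. Of the 31 members named by rule, 20 had the same sign of difference in the libraries with and without Xist and 11 had opposite signs.

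**Figure D4:**
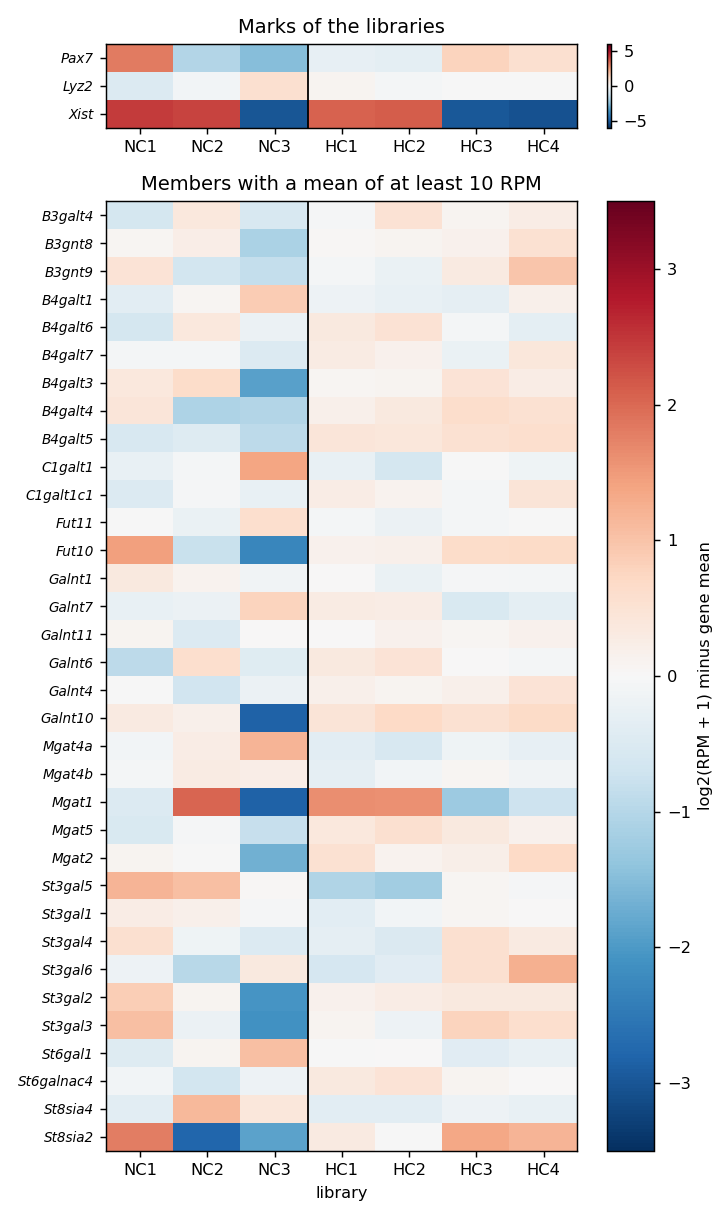
Log2(RPM + 1) minus the mean of the gene over 7 libraries, for Pax7, Lyz2 and Xist (top, color scale to ± 6) and for the 34 members with a mean of at least 10 RPM (bottom, color scale to ± 3.5), where red is above and blue below the mean and the line parts normocapnia from hypercapnia. NC3 is deep blue in Galnt10, Mgat1 and Fut10, NC2 in St8sia2, and the B4galt5 row changes color at the line.

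The fits were also repeated with scores for satellite cells and macrophages, and with Xist, as covariates. With the satellite score as a covariate, 5 members were called (B4galt4, B4galt5, Mgat5, St3gal5 and St8sia2), beside 4.33% of all genes. With the macrophage score, 5 were called as well (B4galt4, B4galt5, Galnt4, Mgat5 and St3gal6), beside 2.60% of all genes. With Xist, there were 4 (B4galt5, C1galt1, Mgat4a and Mgat5), beside 5.50% of all genes. Without NC1, the library richest in Pax7, 10 members and 8.32% of all genes were called, so the number of calls rested strongly on that library. The members added were B4galt4, Fut10, Galnt4, Galnt12, Mgat4a, St6galnac4, St8sia2 and St8sia4. Without NC2, B3galt4, B3gntl1, Galnt6 and Galnt9 were called besides B4galt5 and Mgat5, beside 5.04% of all genes, and St6galnac4 was called without NC3 or HC4. B4galt5 and Mgat5 were in each of these sets.

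**Figure D5:**
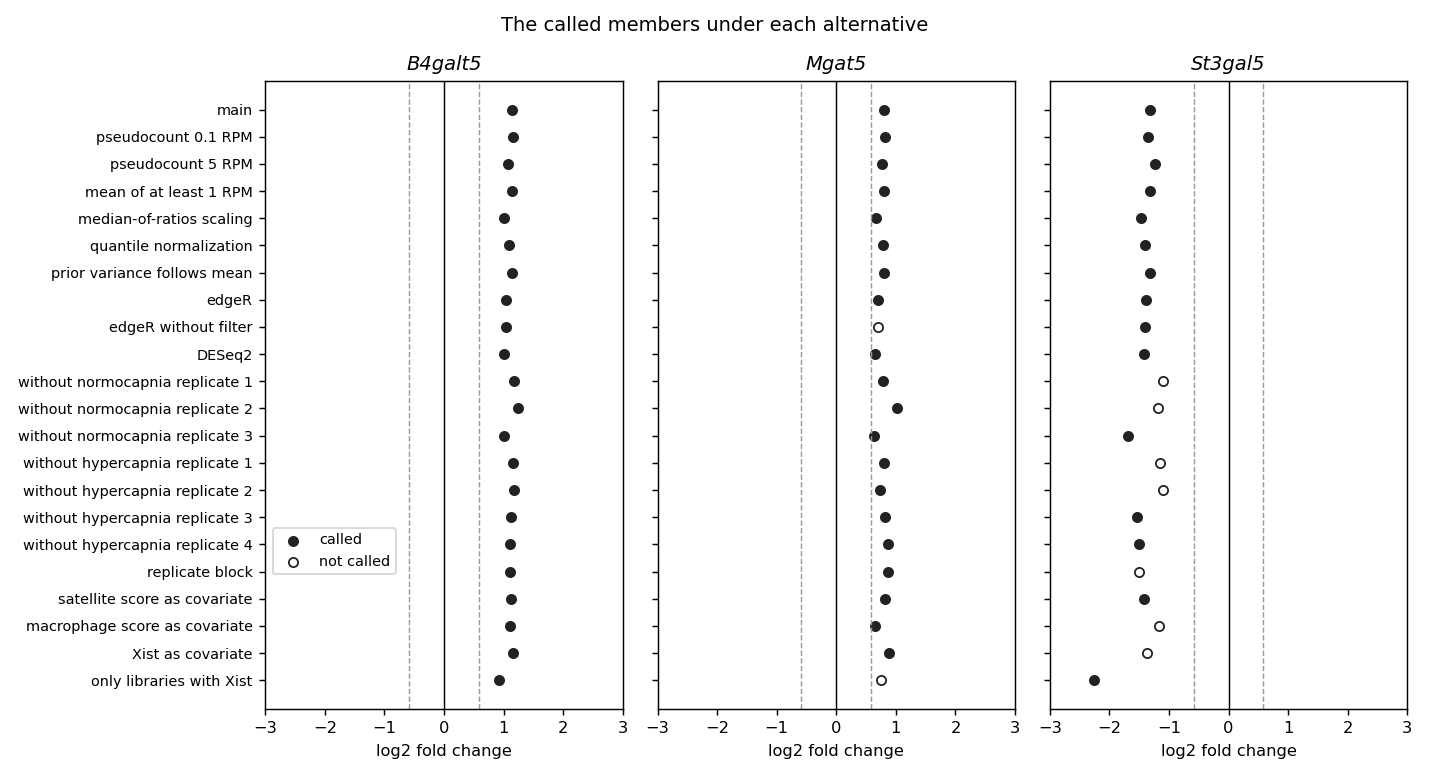
Log2 fold change (hypercapnia minus normocapnia) of the 3 called members in the reported fit (main) and in 21 alternatives, filled where called and open where not. Dashed lines mark a fold change of 1.5. B4galt5 is filled throughout (0.93 to 1.24), Mgat5 is open in 2 alternatives and St3gal5 in 7, while the sign of each is the same everywhere.

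The genes that feed the Golgi enzymes were taken from further lists. The oligosaccharyltransferase hands the finished precursor to new proteins. Of its 12 genes, 1 was called (8.33%, beside 2.57% of all genes and 4.75% of genes at 1 RPM or more). Of the 11 at 10 RPM or more, the groups of 5 did not overlap (2 higher and 3 lower), beside 9.62% of genes at that level. Rpn1, its ribophorin subunit, was read at 282, 358 and 249 RPM under normocapnia and at 531, 512, 507 and 524 RPM under hypercapnia. It rose by a log2 fold change of 0.82 (SE 0.12, adjusted p = 0.517 in limma), whereas Dad1, another subunit, had a log2 fold change of -0.39 (SE 0.12) without a call. The split of this list, 7 higher and 5 lower in RPM, became 3 and 9 under median-of-ratios scaling. In the assembly of the dolichol-linked precursor, 1 of 19 genes was called (5.26%), Dolk, the dolichol kinase, with 17.1 to 36.0 RPM in normocapnia and 36.5 to 43.9 RPM in hypercapnia (0.67, SE 0.25). Alg9, a mannosyltransferase of the same assembly, was next by p (0.27, SE 0.12).

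Nucleotide sugars are the donors of all these reactions, and Ugp2, Uap1l1 and Ugdh of their synthesis were called. Ugp2, which makes UDP-glucose, was read at 103, 104 and 59.3 RPM under normocapnia and at 175, 148, 139 and 179 RPM under hypercapnia (0.88, SE 0.23). Uap1l1, a relative of the UDP-N-acetylglucosamine pyrophosphorylase, held 40.01 to 63.2 RPM in normocapnia and 79.1 to 136 RPM in hypercapnia (0.94, SE 0.26). Ugdh, which draws UDP-glucose off to UDP-glucuronic acid, held 46.1 to 82.5 RPM in normocapnia and 32.3 to 43.0 RPM in hypercapnia and fell (-0.64, SE 0.22). The groups of all 3 did not overlap, and their lowest adjusted p was 0.836 in limma. Ugdh was named after its values were seen. Of the 13 transporters that carry these donors into the Golgi, 0 were called, and Slc35a2, the UDP-galactose transporter, had the smallest p with 11.2 to 16.7 RPM in normocapnia and 15.5 to 21.0 RPM in hypercapnia (0.39, SE 0.16), followed by Slc35c2 (0.66, SE 0.46).

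Cog3, a subunit of the complex that tethers vesicles in the Golgi and so keeps these enzymes in place, fell from 57.2, 46.9 and 120 RPM under normocapnia to 32.8, 29.1, 43.4 and 40.8 RPM under hypercapnia (-0.91, SE 0.36). It was the 1 called gene of 8 in that complex (12.5%, beside 2.57% of all genes and 4.75% of genes at 1 RPM or more). Cog4 was next by p there, with 15.9 to 29.6 RPM under normocapnia and 25.5 to 34.0 RPM under hypercapnia (0.44, SE 0.23). None of the 10 genes of N-glycan trimming, of the 4 sialidases, of the 21 other Golgi glycosyltransferases or of the 21 glycan-binding lectins was called. In trimming, Prkcsh, a subunit of glucosidase II, had a log2 fold change of 0.55 (SE 0.37) and Man1b1, a mannosidase, one of 0.66 (SE 0.61), with NC3 the lowest library of both. Of the sialidases, Neu1 of the lysosome ran from 40.4 to 75.7 RPM in normocapnia and from 65.1 to 81.3 RPM in hypercapnia (0.42, SE 0.22), and Neu4 was at 0.203 RPM or less. B4galnt3, first by p among the other Golgi enzymes, was at 0.214 RPM or less. Of the lectins, 18 of 21 had a positive log2 fold change (median 0.46), and 17 or 18 under the other scalings. At 1 RPM or more, 16 of 18 lectins were higher (median 0.51), beside 62.1% of genes (median 0.16). The list holds Mrc1, which is also 1 of the macrophage markers, and further lectins of leukocytes, and the part of cell makeup in its direction was not tested. Lgals8, a galectin, had the smallest p of them, at 135, 142 and 137 RPM under normocapnia and at 202, 196, 188 and 172 RPM under hypercapnia. Its log2 fold change of 0.46 (SE 0.06, adjusted p = 0.492 in limma) stayed under the fold threshold. Cd22, a lectin of sialic acid, was at 12.6, 8.47 and 6.75 RPM under normocapnia and at 27.2, 31.0, 12.7 and 12.7 RPM under hypercapnia. Its HC3 and HC4 values lay next to NC1, and it was not called (1.02, SE 0.41).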

How the data were processed

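RNA of Pax7-GFP cells sorted from mice in normocapnia (3 libraries) or hypercapnia (4 libraries) was turned by the authors into AmpliSeq libraries, which read 1 amplicon per gene on an Ion instrument, and deposited as a table of RPM, reads scaled to a common total. The aligner, genome build and filters of the authors: not given in the sources used here. The submitters' processing notes name the Transcriptome Analysis Console. All value columns matched a library by name (0 unmatched), and groups came from the labels.

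Hypercapnia was compared with normocapnia by limma (version 3.58.1, R 4.3.3), two-sided, with log2(RPM + 1) as the value and all 23930 genes in the fit. A gene was called where the fold change exceeded 1.5 and the p before adjustment was under 0.05. Fold changes on this scale understate those of low genes. Whole reads were recovered from the RPM steps for 100% of values (tolerance 0.05 reads), and edgeR 4.0.16 and DESeq2 1.42.0 were run on them as alternatives. The value of 3 reads, taken as the floor, was 0.128 to 0.207 RPM, which covers counting error only. Other alternatives were pseudocounts of 0.1 and 5 RPM, a minimum mean of 1 RPM, median-of-ratios and quantile scaling, a prior variance that follows the mean, each library left out, the replicate number as a block, and covariates for satellite score, macrophage score and Xist. A fit of the libraries with Xist alone (10 RPM or more) was added after the data were seen. The limma and read recovery steps were tested on simulated data.

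Named members are those called, the 2 with the highest mean of each family at 1 RPM or more, the 5 higher and 5 lower with the smallest p, those at 10 RPM or more with groups apart, and the 5 at that level with the widest range; of other lists the 2 genes with the smallest p, and Pax7, Lyz2 and Xist. Members and lists were chosen with earlier results of these data known. An item of the list of nucleotide sugar synthesis is not reported here.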

Additional observations from a re-analysis of the deposited data

How the results depend on the processing

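Against 2 members called higher and 1 called lower, the higher count was 1 in edgeR without a filter and in the libraries with Xist, 4 when the satellite score entered as a covariate and 5 when the macrophage score did. The lower count was 2 under quantile normalization, with a prior variance that follows the mean and when Xist entered the fit, 3 in edgeR with a filter, 5 in DESeq2, in edgeR without a filter and in the libraries with Xist, and 0 with the macrophage score. The share of all genes called, 2.57% as reported, moved as well, to 2.90% under quantile normalization, 6.03% in edgeR, 4.88% in edgeR without a filter, 6.25% in DESeq2, 4.24% in the libraries with Xist, 5.04% without NC2 and 8.32% without NC1. Leaving out 1 library at a time gave 2 to 8 members called higher (8 without NC1, 5 without NC2) and 0 to 2 called lower (2 without NC1, 0 without HC1 or HC2). Of all 76 members, those with groups apart then numbered 7 to 25 (25 without NC1, where 18.4% of all genes were apart in place of 4.83%), and 28 in the libraries with Xist (30.4% of all genes), where fewer libraries have to separate. The cause of the other shifts was not tested.

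With the replicate number as a block, 2 members were called higher and 0 lower, since St3gal5 lost its call at a log2 fold change of -1.49 (unadjusted p = 0.133 in limma). The deviations of same-numbered libraries correlated at -0.35, 0.50 and -0.04, so the numbers do not pair the libraries, and the block sets aside HC4, which has no partner.

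The log2 fold changes of 11 named members turned sign in at least 1 alternative. That of B3galt6 was -0.0050 at a pseudocount of 0.1 RPM, -0.095 under median-of-ratios scaling, -0.28 under quantile normalization, -0.0039 in edgeR, -0.060 in DESeq2, -0.019 with the satellite score, -0.12 with Xist, -0.29 under the replicate block and -0.35 in the libraries with Xist. That of St3gal4 was -0.11 under median-of-ratios scaling, -0.0060 under quantile normalization, -0.037 in edgeR, -0.039 in edgeR without a filter, -0.080 in DESeq2, -0.071 with the satellite score, -0.0090 with Xist, -0.066 under the replicate block and -0.62 in the libraries with Xist. That of St6galnac3 was -0.038 at a pseudocount of 0.1 RPM, -0.11 under median-of-ratios scaling, -0.24 under quantile normalization, -0.074 with the satellite score, -0.18 with Xist, -0.15 under the replicate block and -0.79 in the libraries with Xist. With the macrophage score, B4galt6 was at -0.016 and Mgat1 at -0.52. In the libraries with Xist, B3gnt8 was at -0.085, B3gnt9 at -0.077, Fut10 at -0.17, St3gal3 at -0.46 and St6gal1 at 0.19. Leaving out 1 library at a time gave -0.29 to 0.30 for B3galt6, -0.20 to 0.33 for St3gal4, -0.37 to 0.36 for St6galnac3, and, with the turn in sign without NC3, -0.37 to 0.037 for Fut11, -0.48 to 1.96 for Mgat1, -0.10 to 1.49 for St3gal3 and -0.73 to 0.020 for St6gal1. Over the 31 named members, 568 refitted values kept their direction and their side of the thresholds, 27 passed them newly, 9 lost their call and 45 changed sign. Members under 1 RPM rest on at most 53 reads in any library.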
